A study of Mus musculus with 8 samples.

Results

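The 10 genes described here are well-known transcriptional targets of the hypoxia-inducible factors (HIFs) that do not encode glycolytic enzymes or glucose transporters: Ankrd37, Ndrg1, Adm, Bnip3, Bnip3l, Car9, Car12, Ddit4, Cited2 and Kdm3a. They were taken by symbol from an expression table that holds 1 probe set for each of 25428 genes, and each of the 10 had a probe set. The RNA came from 1 lung lobe of each of 8 Nfat5fl/fl mice, of which 4 (mice F, G, H and I) were kept in normoxia and 4 (mice A, B, C and D) in hypoxia with 10% oxygen for 7 days. In Nfat5fl/fl mice, an exon of Nfat5, which encodes a stress-responsive transcription factor, is flanked by recombination sites. In the study, such animals were the controls for an inducible smooth muscle cell knockout, were male young adults carrying a tamoxifen-dependent Cre recombinase under the smooth muscle myosin heavy chain promoter, and received the solvent in place of tamoxifen. The labels of the arrays give neither age nor sex, and both groups carry the same allele. Nfat5 itself had a log2 level of 6.69 ± 0.47 (SD, n = 4) in normoxia and 6.43 ± 0.36 in hypoxia, with overlapping groups.

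HIFs are pairs of an oxygen-labile alpha subunit and a stable partner, ARNT. When oxygen is plentiful, prolyl hydroxylases mark the alpha subunit for destruction through the von Hippel-Lindau protein. When oxygen is scarce, the pair accumulates, binds short hypoxia response elements around the core letters ACGTG or GCGTG and raises transcription. The targets outside glycolysis cover distinct tasks. Adm encodes a vasodilator peptide, Bnip3 and Bnip3l encode receptors that hand mitochondria to autophagosomes, Car9 and Car12 encode carbonic anhydrases that regulate pH outside the cell, Ddit4 encodes an inhibitor of the growth kinase complex mTORC1, Cited2 encodes a competitor of HIF for its coactivator p300, and Kdm3a encodes an oxygen-dependent histone demethylase. Ndrg1 encodes a stress-responsive cytoplasmic protein and Ankrd37 a small ankyrin repeat protein.

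Most of the promoters that could be examined hold the letters that HIFs bind. RefSeq windows of 300 bases (250 before and 50 after the annotated start, GRCm38.p6) matched 8 of the 10 genes by Entrez number, and the others are Bnip3l and Ndrg1. ACGTG or GCGTG was searched on both strands, so that CACGT and CACGC count as well, and overlapping matches were counted separately. A match was present in 7 of the 8 genes and ACGTG in 5, beside 46.7% and 21.8% of all 27025 genes with a window. Ankrd37 had 4 matches and Bnip3 had 5, while 3.86% of all 32851 windows had 4 or more. Adm, Ddit4 and Cited2 had 2 each, Car9 had 1, Kdm3a had 1 in the first of its 3 windows, and Car12 had 0. A match is only a run of letters and does not show that a factor binds there. The windows of 4 genes are printed 5′ to 3′ on the strand of the gene, with matches in capitals, since their genes are described first in their groups below. Ankrd37 (chr8:45999801-46000100, minus strand) and Bnip3 (chr7:138909457-138909756, minus strand) have the most matches, Adm (chr7:110627407-110627706, plus strand) is the secreted ligand, and Car9 (chr4:43506776-43507075, plus strand) has its single match close to the start.
Ankrd37: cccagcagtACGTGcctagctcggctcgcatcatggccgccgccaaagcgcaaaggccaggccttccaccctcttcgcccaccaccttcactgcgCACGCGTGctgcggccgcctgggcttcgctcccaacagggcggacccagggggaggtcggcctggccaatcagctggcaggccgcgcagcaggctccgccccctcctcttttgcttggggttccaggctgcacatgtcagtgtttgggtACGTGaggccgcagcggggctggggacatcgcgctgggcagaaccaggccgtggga
Bnip3: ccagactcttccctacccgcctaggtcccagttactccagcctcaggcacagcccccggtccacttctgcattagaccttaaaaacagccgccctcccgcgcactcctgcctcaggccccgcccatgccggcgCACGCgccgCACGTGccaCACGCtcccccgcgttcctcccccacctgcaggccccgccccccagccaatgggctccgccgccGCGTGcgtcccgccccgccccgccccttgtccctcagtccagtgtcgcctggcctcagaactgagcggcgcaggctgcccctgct
Adm: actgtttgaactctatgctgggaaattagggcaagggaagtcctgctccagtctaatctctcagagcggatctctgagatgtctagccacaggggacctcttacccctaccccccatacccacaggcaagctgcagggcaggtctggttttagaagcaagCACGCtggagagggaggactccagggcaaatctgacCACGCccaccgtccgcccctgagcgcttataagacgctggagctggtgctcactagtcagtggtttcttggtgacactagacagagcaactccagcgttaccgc
Car9: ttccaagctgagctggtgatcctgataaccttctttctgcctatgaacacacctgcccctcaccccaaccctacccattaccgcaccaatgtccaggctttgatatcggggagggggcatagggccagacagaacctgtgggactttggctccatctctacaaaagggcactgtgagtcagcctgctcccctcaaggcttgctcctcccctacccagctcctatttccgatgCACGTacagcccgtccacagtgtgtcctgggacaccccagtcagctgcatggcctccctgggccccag
In Ankrd37, the match nearest to the start begins 6 bases before it, in Car9 18 bases, in Bnip3 35 bases and in Adm 54 bases. The joined capitals in Ankrd37 are a CACGC and a GCGTG that overlap, and CACGTG in Bnip3 is 1 match on each strand.

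After 7 days of hypoxia, 2 of the 10 genes had levels in all 4 hypoxic mice above those of all 4 normoxic mice: Ankrd37 and Ndrg1. Over all probe sets, the groups were separated in this direction in 3.01%, in the opposite direction in 1.61% and in either in 4.62%. None of the 10 genes, and none of all probe sets (0%), passed an adjusted p of 0.05 in limma's moderated test or in the F test of a one-way analysis of variance, the test the study's methods name. At an unadjusted p under 0.05 the limma test counted the same 2 genes, both higher, beside 5.34% of probe sets higher and 8.5% in either direction. The mean was higher in hypoxia for 7 of the 10 genes, beside 49.1% of all probe sets, and lower for 3 (Bnip3, Bnip3l and Car12). The median log2 difference was 0.07, beside -0.00492 over all probe sets. For 4 genes (Adm, Car12, Cited2 and Kdm3a) the difference was under 0.2 in size. The median SD between mice over the 10 genes was 0.294 in normoxia and 0.289 in hypoxia on the log2 scale. All values below are log2 intensities of the deposited table, given for mice F, G, H and I and then for mice A, B, C and D. Levels of different genes are not compared, since probes differ in brightness.

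**Figure D1:**
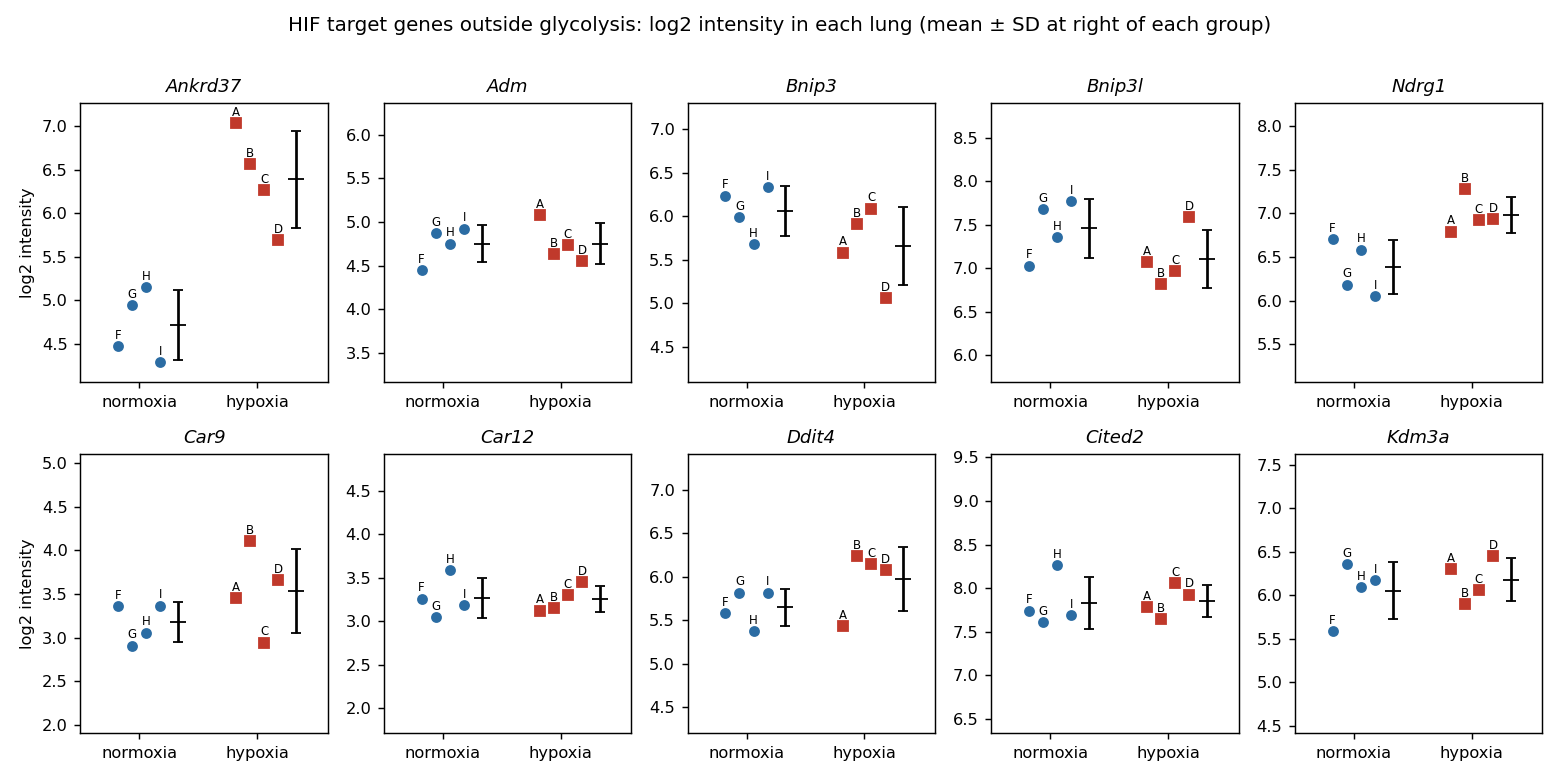
Log2 level of each of the 10 genes in every mouse (lettered points; normoxia and hypoxia side by side, with the mean ± SD to the right of each group and the same vertical span in every panel). The points of the 2 groups do not overlap for Ankrd37 and Ndrg1 and overlap for the other 8.

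**Figure D2:**
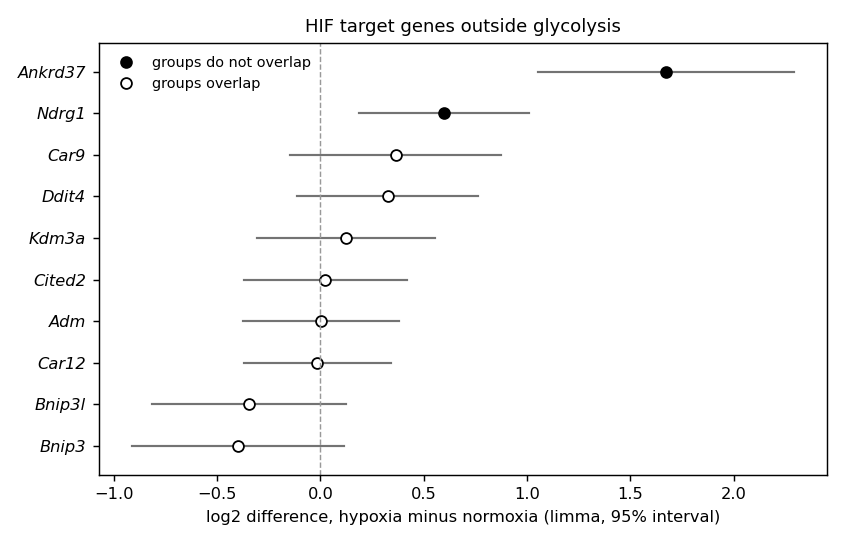
Log2 difference between hypoxia and normoxia for the 10 genes (points) with the 95% interval of the limma fit (lines), ordered by size. The intervals of Ankrd37 (1.05 to 2.29) and Ndrg1 (0.19 to 1.01) lie above 0, and the other 8 include 0.

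The arrays carried the markers of lung. Surfactant protein C (Sftpc) was at 12.6 to 13.6 and the club cell gene Scgb1a1 at 13.0 to 13.4 over the 8 mice. None of 10 lung epithelial and endothelial genes separated the groups, beside 4.62% of all probe sets. Of these 10 genes, 9 had a higher mean in hypoxia, and the median log2 difference was 0.198. Their summed linear intensities overlapped, at 28179.7 to 40276.6 in normoxia and 33942.5 to 44469.4 in hypoxia. Genes of other tissues differed between mice, and only some of these tissues moved with the groups. Adipocyte genes had lower means in hypoxia in 14 of 14, with summed linear intensities of 1307 to 5232 in normoxia and 855 to 1156 in hypoxia. Cardiac muscle genes were lower in 13 of 15 (1543 to 2606 against 1051 to 1297), and skeletal muscle genes in 12 of 13, with mice F and G at 3266 and 2624 and the other 6 mice at 235 to 557. All 10 genes of dividing cells were higher in every hypoxic mouse than in any normoxic mouse (179 to 293 against 459 to 1033), beside 3.01% of all probe sets. Mesothelial and fibroblast genes were higher in 4 of 10 and lower in 6 (1987 to 2406 against 2001 to 2456). Smooth muscle genes were higher in 6 of 9 and lower in 3 (1105 to 1758 against 1600 to 2173). The part of these tissues and cells in the differences below was not tested. In whole lobes, a change in the number of cells of a type and a change in RNA per cell cannot be told apart.

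Ankrd37, whose protein carries ankyrin repeats, had the largest difference of the 10. Its log2 level was 4.47, 4.95, 5.15 and 4.29 in normoxia and 7.04, 6.56, 6.27 and 5.70 in hypoxia. The lowest hypoxic mouse, D, lay above the highest normoxic mouse, H, and mouse A was the highest of all. The means were 4.72 ± 0.40 (SD, n = 4) and 6.39 ± 0.56, a log2 difference of 1.67 (SE 0.28, 95% interval 1.05 to 2.29), which is 3.19-fold (interval 2.08 to 4.90). By unadjusted p it ranked 29 of 25428 probe sets, and its limma adjusted p was 0.0751. A two-sided exact permutation test gave p = 0.0286, the smallest that the 70 assignments of 8 mice allow. Its adjusted p fell below the threshold in 2 of 16 alternative settings, to 0.0334 when dim probe sets were left out and to 0.0399 with array weights.

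Ndrg1 had the other separated pair of groups, with a smaller difference. Its log2 level was 6.70, 6.18, 6.58 and 6.05 in normoxia and 6.79, 7.28, 6.92 and 6.94 in hypoxia. The gap between the groups was narrow, between normoxic mouse F and hypoxic mouse A. The means were 6.38 ± 0.31 and 6.98 ± 0.21, a log2 difference of 0.60 (SE 0.19, interval 0.19 to 1.01) or 1.51-fold (interval 1.14 to 2.01). The limma adjusted p was 0.350 and the exact permutation p 0.0286. None of the other 3 members of its family had separated groups, beside 4.62% of all probe sets. Ndrg2, a gene of differentiated tissues such as brain, muscle and fat, was at 7.98, 7.79, 7.17 and 7.34 in normoxia and 6.92, 6.82, 7.23 and 6.85 in hypoxia, a log2 difference of -0.61 (SE 0.20, adjusted p 0.385), with overlapping groups. Ndrg3 differed by -0.41 (SE 0.22, adjusted p 0.656) and Ndrg4 by 0.05 (SE 0.15, adjusted p 0.959).

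Likeness of pattern was measured as the root mean square of the differences between log2 values, each gene centred on its mean over the 8 mice. Predicted genes, with symbols of Gm and a number, Rik or LOC, were left out. The 5 remaining named genes closest to Ankrd37 were Ltbp2 (0.231), Mfap4 (0.241), Pgf (0.307), Adam23 (0.314) and Tnc (0.322). Those closest to Ndrg1 were Rcc1 (0.0838), Sting1 (0.103), Rfc2 (0.121), Jpt1 (0.124) and Pus1 (0.126). These are descriptions over 8 mice, and since both patterns separate the groups, any gene with a difference of similar size comes close.

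Adm, the precursor of the vasodilator adrenomedullin, did not separate the groups. Its log2 level was 4.45, 4.87, 4.75 and 4.92 in normoxia and 5.08, 4.63, 4.74 and 4.55 in hypoxia. Hypoxic mouse A had the highest and normoxic mouse F the lowest level, while hypoxic mice B, C and D lay below normoxic mice G, H and I. Both means were 4.75, and the 95% interval of the log2 difference reached from -0.37 to 0.38, which is 0.772-fold to 1.30-fold. The adrenomedullin receptor is built from Calcrl, a receptor of the secretin family, with one of the accessory proteins RAMP2 and RAMP3. Ramp3 was at 4.26, 4.47, 4.28 and 4.22 in normoxia and 5.04, 5.40, 5.16 and 4.90 in hypoxia. All 4 hypoxic mice lay above all normoxic mice, with a log2 difference of 0.82 (SE 0.15, limma adjusted p 0.0977) or 1.76-fold (interval 1.39 to 2.23). Ackr3, a receptor that removes adrenomedullin and the chemokine CXCL12 from the surroundings of cells, was at 6.13, 6.04, 6.47 and 6.37 against 7.40, 7.46, 6.78 and 6.61. Its groups were separated too, with mice A and B well above C and D, and the log2 difference was 0.81 (SE 0.22, adjusted p 0.253).

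Calcrl varied more within normoxia than between the groups: mice F and H were at 8.87 and 8.83, mice G and I at 10.6 and 10.5, and the hypoxic mice at 9.36 to 10.2. Its log2 difference was 0.07 (SE 0.41, adjusted p 0.982). Ramp2 differed by -0.08 (SE 0.14, adjusted p 0.919). Adm2, a related peptide, was low in all mice (3.06 to 3.28 in normoxia, 3.31 to 3.57 in hypoxia), separated by a small log2 difference of 0.25 (SE 0.14, adjusted p 0.685). Calcb, a calcitonin gene-related peptide, differed by 0.36 (SE 0.21, adjusted p 0.697), with overlapping groups. Among the 11 genes of this list, Adm included, 2 had an unadjusted p under 0.05, both higher, and 3 had separated groups, all higher. The shares over all probe sets were 5.34% higher at this unadjusted p of limma and 3.01% separated and higher.

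**Figure D3:**
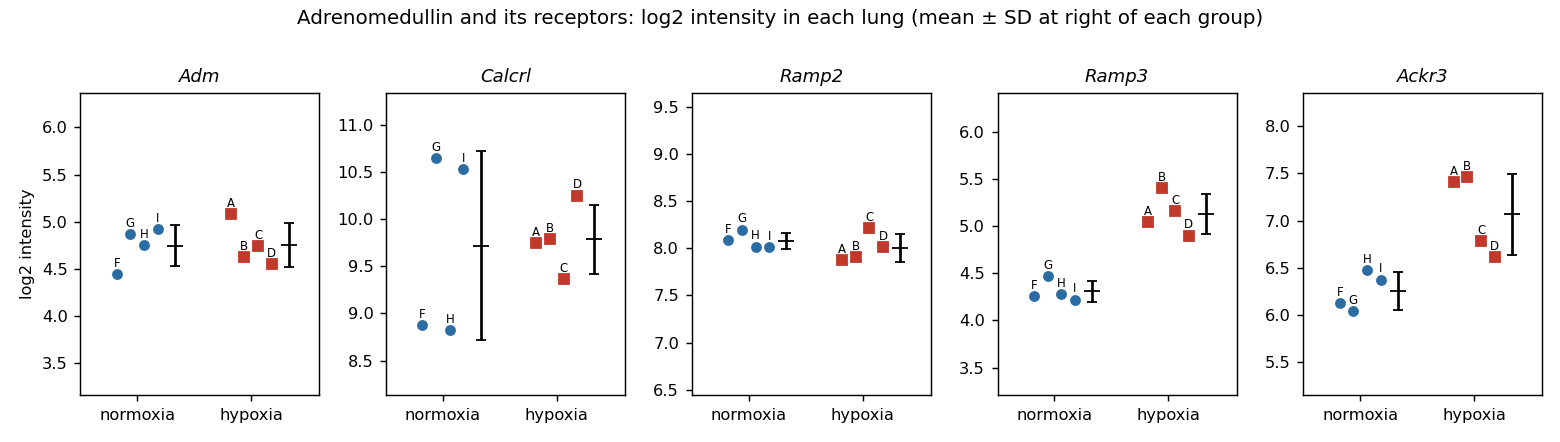
Log2 levels of adrenomedullin and of genes of its receptor and clearance in every mouse (lettered points; normoxia and hypoxia side by side, with the mean ± SD to the right of each group and the same vertical span in every panel). Ramp3 and Ackr3 show separated groups (differences of 0.82 and 0.81), while the points of Adm, Calcrl and Ramp2 overlap.

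Bnip3 and Bnip3l, the mitophagy receptors, both had lower means in hypoxia. Bnip3 was at 6.24, 5.99, 5.68 and 6.33 in normoxia and 5.58, 5.91, 6.09 and 5.06 in hypoxia. Hypoxic mice A and D lay below all normoxic mice, and mice B and C lay within the normoxic range. The log2 difference was -0.40 (SE 0.23, interval -0.91 to 0.11, adjusted p 0.697; exact permutation p = 0.171, n = 4 against 4). Bnip3l, also called Nix and needed for the removal of mitochondria from maturing red cells, was at 7.03, 7.67, 7.36 and 7.77 in normoxia and 7.07, 6.82, 6.97 and 7.59 in hypoxia. Mice B and C lay below all normoxic mice, so that the low hypoxic mice were not those of Bnip3. The log2 difference was -0.35 (SE 0.21, interval -0.82 to 0.12, adjusted p 0.712; exact permutation p = 0.2). The upper bounds correspond to 1.08-fold for Bnip3 and 1.09-fold for Bnip3l.

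Beside these values stood the cardiac muscle genes given above and the erythroid genes. Of 14 erythroid genes, 10 had a probe set, without Hba-a1, Hba-a2, Hbb-b1 and Ahsp, and 6 of the 10 had a higher mean in hypoxia. Their summed linear intensity was 334 to 395 in normoxia and 322 to 693 in hypoxia, and their part in Bnip3l was not tested. Without the normoxic mice F and G, Bnip3 differed by -0.35 and Bnip3l by -0.45 on the log2 scale, and without hypoxic mouse D they differed by -0.20 and -0.50. Among 16 mitophagy receptors and partners, Bnip3 and Bnip3l included, 10 had a lower mean in hypoxia and the median log2 difference was -0.18. Only Gabarapl2, an ATG8 protein of the autophagosome membrane, had an unadjusted p under 0.05 in this list, beside 8.5% of all probe sets. Its log2 difference was 0.38 (SE 0.16, adjusted p 0.547). Pink1, the kinase that marks damaged mitochondria, differed by -0.28 (SE 0.15, adjusted p 0.665).

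Car9 and Car12, the membrane-bound carbonic anhydrases with an active site outside the cell, were dim in these lobes. Their means lay under the median of all probe sets (4.18), and the other 8 genes lay at or above it. Car9 was at 3.36, 2.91, 3.06 and 3.37 in normoxia and 3.45, 4.10, 2.94 and 3.66 in hypoxia. Of the hypoxic mice, A, B and D lay above all normoxic mice, while mouse C was close to the lowest normoxic mouse, G. The log2 difference was 0.36 (SE 0.23, interval -0.15 to 0.88, adjusted p 0.724; exact permutation p = 0.229). Without mouse C the groups were separated and the difference was 0.56, and without mouse B they overlapped and it was 0.18. Car12 was at 3.26, 3.05, 3.59 and 3.18 in normoxia and 3.12, 3.15, 3.30 and 3.45 in hypoxia. The hypoxic mice all lay inside the normoxic range, and the log2 difference was -0.02 (SE 0.16), with an interval of 0.773-fold to 1.27-fold.

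The largest differences in the carbonic anhydrase family were those of Car3 and Car14. Car14, another membrane-bound form, was at 6.70, 6.72, 6.45 and 6.35 in normoxia and 7.66, 7.86, 7.39 and 6.96 in hypoxia. All hypoxic mice lay above all normoxic mice, with a log2 difference of 0.91 (SE 0.20, adjusted p 0.163) or 1.88-fold (interval 1.38 to 2.56). Car3, a cytosolic form abundant in fat and skeletal muscle, was at 10.02, 8.97, 10.87 and 9.82 in normoxia and 7.85, 6.92, 8.39 and 8.52 in hypoxia. The groups were separated in the other direction, by a log2 difference of -2.0 (SE 0.41, adjusted p 0.137). The adipocyte gene Adipoq, which encodes the hormone adiponectin, was at 4.58 to 7.06 in normoxia and 3.98 to 4.37 in hypoxia, and the part of adipocytes in Car3 was not tested. The mitochondrial Car5b differed by -0.85 (SE 0.31, adjusted p 0.461) and the erythrocyte form Car1 by 0.40 (SE 0.17, adjusted p 0.564), both with overlapping groups. Of the 16 members of the family, 10 had a higher and 6 a lower mean, and the median log2 difference was 0.01.

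**Figure D4:**
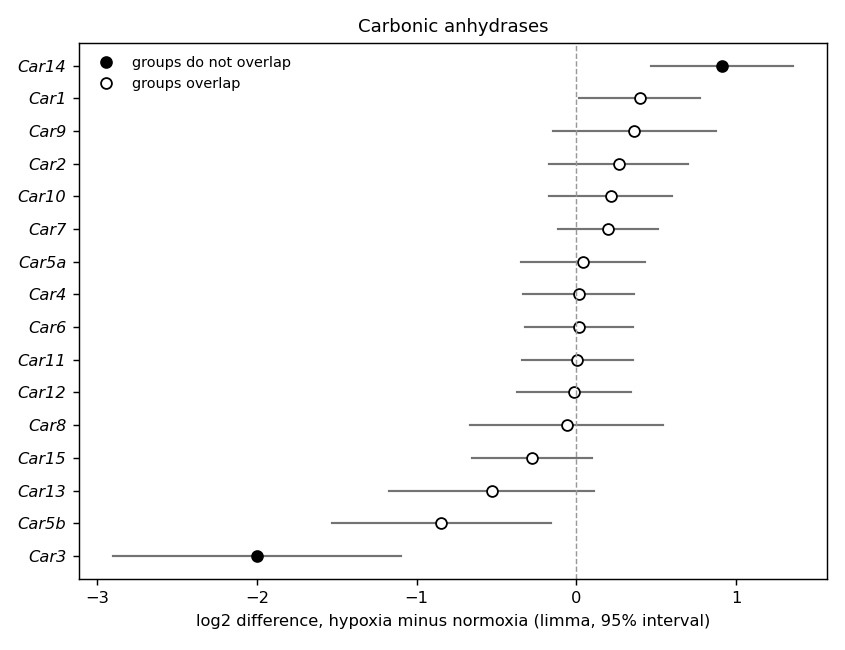
Log2 difference between hypoxia and normoxia for 16 carbonic anhydrases (points) with the 95% interval of the limma fit (lines). Filled points mark the genes whose groups do not overlap, Car14 (0.91) and Car3 (-2.0), while Car9 (0.36) and Car12 (-0.02) have intervals that include 0.

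Ddit4, also called REDD1, which restrains mTORC1 through the TSC complex when oxygen or energy is short, was at 5.58, 5.82, 5.38 and 5.82 in normoxia and 5.44, 6.24, 6.15 and 6.07 in hypoxia. Mice B, C and D lay above all normoxic mice, and mouse A was the second lowest of the 8. The log2 difference was 0.32 (SE 0.20, interval -0.11 to 0.76, adjusted p 0.711; exact permutation p = 0.171), and it was 0.50 with separated groups without mouse A and 0.23 with overlapping groups without mouse H. Sesn2, a sestrin that restrains mTORC1 through amino acid sensing, was at 5.31, 5.01, 5.04 and 4.58 in normoxia and 5.69, 5.97, 5.50 and 5.62 in hypoxia. Its groups were separated, with a log2 difference of 0.71 (SE 0.18, adjusted p 0.229) or 1.64-fold. Tsc1, a subunit of the TSC complex, was separated as well, by 0.57 (SE 0.21, adjusted p 0.470). Deptor, an mTOR-binding inhibitor, differed by -0.62 (SE 0.28, adjusted p 0.566) and Txnip, a thioredoxin-binding protein, by -0.34 (SE 0.16, adjusted p 0.607), both with overlapping groups. Of these 14 regulators, Ddit4 included, 9 had a higher mean in hypoxia, and the median log2 difference was 0.19.

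Cited2, which limits HIF by occupying p300 and its relative CBP, was at 7.74, 7.61, 8.26 and 7.69 in normoxia and 7.78, 7.64, 8.06 and 7.92 in hypoxia. Mouse H of the normoxic group was the highest, and the log2 difference was 0.02 (SE 0.18, interval -0.37 to 0.42, or 0.774-fold to 1.34-fold). The coactivators themselves did not separate the groups either. Crebbp differed by -0.31 (SE 0.25, adjusted p 0.786) and Ep300 by -0.24 (SE 0.20, adjusted p 0.799), and both were highest in mouse H. Cited1 differed by -0.11 (SE 0.24, adjusted p 0.936). Tfap2c, a transcription factor that works with CITED proteins, was separated at a low level (2.53 to 2.76 against 2.80 to 2.87), with a log2 difference of 0.19 (SE 0.13, adjusted p 0.750). It was the 1 gene of 7 in this list with separated groups, beside 4.62% of all probe sets, and none had an unadjusted p under 0.05.

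Kdm3a, which removes methyl groups from lysine 9 of histone H3, was at 5.59, 6.35, 6.09 and 6.18 in normoxia and 6.30, 5.90, 6.06 and 6.45 in hypoxia. The lowest level was that of mouse F, the highest that of mouse D, and the other mice were intermixed. The log2 difference was 0.12 (SE 0.20, interval -0.31 to 0.55, or 0.808-fold to 1.47-fold). Among 14 histone demethylases of the same JmjC class, Kdm3a included, 7 had a higher and 7 a lower mean. None had an unadjusted p of limma under 0.05, beside 8.5% of all probe sets. None had separated groups, beside 4.62%. The smallest p-values of this list belonged to Kdm6b (log2 difference 0.32, SE 0.19, adjusted p 0.695), Kdm4a (0.20, SE 0.14, adjusted p 0.751), Kdm3b (-0.24, SE 0.19, adjusted p 0.783) and Kdm5a (-0.23, SE 0.24, adjusted p 0.846).

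A further 35 HIF targets outside glycolysis were examined for comparison. Of these, 7 had an unadjusted p under 0.05, all higher in hypoxia, and 3 had separated groups, all higher, while 0 passed the adjusted threshold. Of all probe sets, 5.34% were higher at this unadjusted p of limma and 3.01% had separated groups that were higher. Lox, which cross-links collagen and elastin, was at 4.88, 5.28, 5.56 and 5.16 in normoxia and 6.02, 6.07, 5.84 and 6.29 in hypoxia, a log2 difference of 0.83 (SE 0.18, adjusted p 0.151). All hypoxic mice lay above all normoxic mice. Nos2, the inducible nitric oxide synthase, was at 3.36, 4.06, 4.31 and 4.21 against 5.05, 4.85, 4.94 and 4.47, a log2 difference of 0.84 (SE 0.22, adjusted p 0.243). P4ha2, a collagen prolyl hydroxylase, was at 5.34, 5.27, 5.66 and 4.83 against 6.22, 6.10, 6.52 and 5.47, a log2 difference of 0.80 (SE 0.24, adjusted p 0.325). Nos2 was separated too, whereas for P4ha2 hypoxic mouse D lay inside the normoxic range. Angptl4, Loxl2 and Plod2 were also among the 7 and are named here after their values were seen, with log2 differences of 0.87, 0.79 and 0.53. Over the 35 genes, 21 had a higher and 14 a lower mean, and the median log2 difference was 0.10. Among the 14 were Rora (-0.44), Pdk1 (-0.38) and Vegfa (-0.13), also named after their values were seen. Their groups overlapped.

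**Figure D5:**
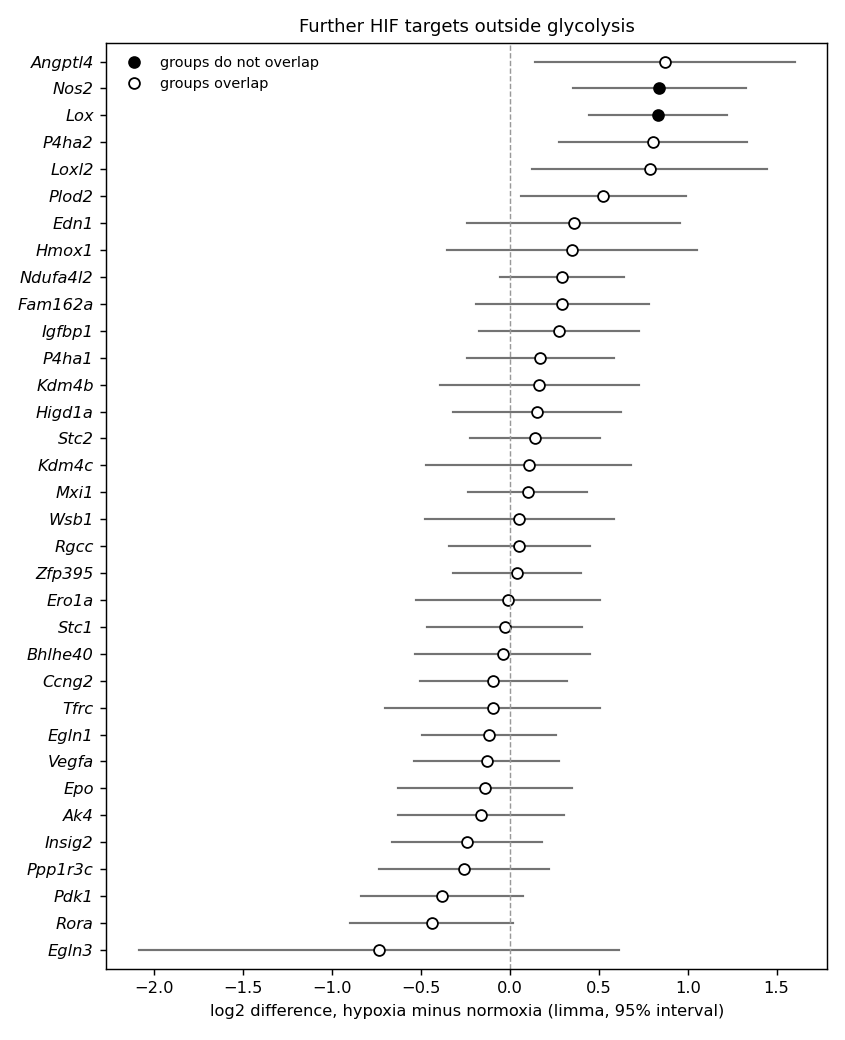
Log2 difference between hypoxia and normoxia for the further HIF targets outside glycolysis (points), 1 of the 35 not shown, with the 95% interval of the limma fit (lines). Filled points mark genes whose groups do not overlap, Nos2 (0.84) and Lox (0.83), and most other intervals include 0.

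The genes of the HIF pathway itself were read from the same arrays. Of 10 subunits and oxygen sensors, 8 had a lower and 2 a higher mean in hypoxia, and the median log2 difference was -0.09. No groups were separated, beside 4.62% of all probe sets. Hif1a and Epas1, which encode the alpha subunits HIF1α and HIF2α, differed by -0.04 (SE 0.23, adjusted p 0.983) and -0.68 (SE 0.31, adjusted p 0.588). Epas1 was the 1 gene of this list with an unadjusted p under 0.05, beside 8.5% of all probe sets. It was at 10.14, 9.94, 11.40 and 10.69 in normoxia and 9.95, 9.26, 10.03 and 10.20 in hypoxia. Its groups overlapped, and its highest level was in mouse H. Hif3a, Arnt and Arnt2 differed by -0.09, -0.09 and -0.06, and their adjusted p-values were 0.922, 0.939 and 0.947. The prolyl hydroxylase genes Egln1 and Egln2 differed by -0.12 (SE 0.17) and 0.19 (SE 0.15), Vhl by 0.17 (SE 0.18) and the asparaginyl hydroxylase gene Hif1an by -0.20 (SE 0.21), with adjusted p-values of 0.787 to 0.893. Egln3, the prolyl hydroxylase gene that HIFs also induce, was at 6.94 in normoxic mouse F and at 3.37 to 4.56 in the other 7 mice, a log2 difference of -0.73 (SE 0.61, adjusted p 0.795). Mouse F also had the highest summed skeletal muscle (3266), adipocyte (5232) and cardiac muscle genes (2606). Mouse G, with skeletal muscle genes at 2624, had Egln3 at 4.30. The part of these tissues in Egln3 was not tested.

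The 10 targets did not mark the same mice. Mouse B held the highest level of 3 of them, mice H, I and A of 2 each and mouse D of 1, while the lowest level lay in normoxic mice for 8 and in mice B and D for 1 each. Of the 10 genes, 8 were above their normoxic mean in mouse D, 7 in mouse C, 5 in mouse A and 4 in mouse B, beside 3 to 6 in the normoxic mice. Mouse B, with the highest level of Ndrg1, Car9 and Ddit4, was thus below the normoxic mean in 6 of the 10. Over the 114 other genes of the pathway, partner and family lists, limma's unadjusted p was under 0.05 for 14 with a higher and 5 with a lower mean. This is 16.7% beside 8.5% of all probe sets, and 9.65% had separated groups beside 4.62%. The lists were written with earlier results of these data known, so these shares describe the lists and do not test them.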

How the data were processed

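Affymetrix Mouse Gene 2.0 ST arrays were used to profile total RNA of 1 lung lobe per mouse. The deposited values are log2 expression levels, which the authors made by quantile normalization with a custom chip definition (version 22, 1 probe set per Entrez gene), and RMA is named in the submitters' processing notes. How the background was corrected, and over which arrays values were normalized, is not given in the sources. Array medians were 4.17 to 4.20. Of 25428 probe sets, 24705 were named by the array annotation, 564 through their Entrez number only, and 159 stayed unnamed. Mouse F was stored in finer steps: 1.07% of its values lay on the coarser grid that held 100% of those of the other 7 mice. No 2 arrays correlated above 0.982. The labels name each mouse by a letter, with no pairing between groups, and array number (n = 4 per group) limits the precision.

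Hypoxia was compared with normoxia in limma 3.58.1 (R 4.3.3; lmFit and eBayes over all probe sets, Benjamini-Hochberg adjustment, threshold 0.05). Exact permutation tests were two-sided. In simulated data for this comparison, run on 25428 probe sets, limma recovered 59 of 100 differences of 1 and 92 of 100 of 2 (log2). The simulated noise was independent between probe sets, without the shared variation in tissue content of real lobes, so these shares need not hold here. In the measured data 0 probe sets passed, although Fabp4 (-2.71) and Ucp1 (-3.09) differed by more than 2 in size. Alternatives were renormalization, median centring, no dim probe sets (mean under 4.18), the methods' F test (one-way analysis of variance, without moderation), trended robust variance, array weights, named probe sets only and leaving out mice. All 10 genes were named, and of each list up to 4 with the smallest p (all of small families, the HIF pathway and the adrenomedullin receptor) and the 5 genes most like Ankrd37 and Ndrg1. Of the further HIF targets, 1 gene is counted but not reported here. The genes, lists and tests were chosen with earlier results of these data known. Figures were drawn with matplotlib 3.10.9.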

Additional observations from a re-analysis of the deposited data

Results flagged for a closer look

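Among 102 groups of 4 mice, those of the 10 targets and of the other named genes, 1 held a mouse far from the rest by Dixon's criterion at the 95% level, which chance alone meets in about 5% of groups. Arnt, the stable partner of the HIF alpha subunits, was at a log2 level of 7.57 in normoxic mouse H and at 6.88 to 6.94 in the other normoxic mice, so that the gap took 0.904 of the range. The Arnt levels of the hypoxic mice, 6.57 to 7.29, spanned those of the other 3 normoxic mice and lay below that of mouse H.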

How the results depend on the processing

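Across 16 alternatives, 141 of 158 values for the 10 targets kept their direction and side of the threshold (Car9 and Car12 have none without dim probe sets). Ankrd37 passed the threshold without dim probe sets (1.67, adjusted p 0.0334) and with array weights (1.71, adjusted p 0.0399), so that 1 of the 10 genes was called there. Its adjusted p ranged from 0.0334 to 0.488, the latter in the methods' F test, and its log2 difference from 1.46 to 1.91 with 1 mouse left out. Ndrg1 ranged from 0.49 to 0.71 with 1 mouse left out (adjusted p 0.275 to 0.901), and its adjusted p over all 16 alternatives was 0.187 to 0.901. Near-zero differences changed sign: Adm was -0.0278 with array weights, -0.0869 without mice F and G, and -0.107 to 0.0683 with 1 mouse left out, Car12 was 0.00709 with array weights and -0.0903 to 0.0909, Cited2 was -0.126 without F and G and -0.0476 to 0.170, and Kdm3a was -0.0304 to 0.223. Ranges for the others with 1 mouse left out were -0.54 to -0.20 (Bnip3), -0.50 to -0.24 (Bnip3l), 0.18 to 0.56 (Car9) and 0.23 to 0.50 (Ddit4). By limma's unadjusted p, 2 to 4 of the 10 were counted with 1 mouse left out, the 4 without hypoxic mouse C, when Car9 and Bnip3 joined, and 2 to 3 had separated groups. The median over the 10 genes was -0.0225 without F and G and -0.0119 to 0.153 with 1 mouse left out. Over all probe sets, 53 passed without dim probe sets, 12 with a trended robust variance, 22 with array weights, 4 without F and G, and 0 to 33 with 1 mouse left out (23 without G, 14 without H, 33 without C). The 114 other listed genes gave 0 calls with any 1 mouse left out. The causes were not tested, other than that leaving out dim probe sets shortens the list tested. No paired analysis was possible because letters name separate mice. The signal of Car9 and Car12, below the median of all probe sets, limits what their differences can show.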
